A study of Bos taurus with 30 samples.

Results

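A group of 10 genes that write, copy, remove or protect DNA methylation, or in the case of MBD3 work in the NuRD chromatin complex, was followed in the 2 main tissues of day 15 cattle embryos. They are DNMT1, UHRF1, DNMT3A, DNMT3B, TET1, TET2, TET3, TDG, ZFP57 and MBD3, and they were chosen by name, as the rows of the deposited count table whose Entrez gene ID carries one of these cattle symbols. All 10 were found among the 35092 rows, and all 10 passed the filter on low counts in every comparison. The RNA came from 30 libraries of 17 Holstein embryos. The embryonic disc (ED), from which the body of the calf forms, gave 7 libraries of in vitro produced (IVP) embryos and 9 of in vivo derived (IVV) embryos. The extra-embryonic membranes (EEM), which form the fetal part of the placenta, gave 6 IVP and 8 IVV libraries, and 13 embryos (5 IVP and 8 IVV) gave both tissues. IVP embryos arose from slaughterhouse oocytes fertilized with semen of a single Holstein bull, cultured without serum, moved to 2 recipient cows at day 7 and flushed out at day 15. IVV embryos were flushed at the same day from 2 cows that had been superovulated and inseminated. Embryos of a group therefore shared cows, so procedure, cow and hormone treatment cannot be told apart. The same holds in large part for embryo sex, read here from XIST, an RNA of the inactive X chromosome of females. XIST had at most 30 counts in every IVP library and at least 3056 counts in 7 of 9 IVV discs. The p-values below measure the spread between embryos.

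Cytosine methylation at CpG sites is copied to the new strand after DNA replication by DNMT1, which UHRF1 guides to half-methylated sites. DNMT3A and DNMT3B set methylation at sites that had none, the TET enzymes oxidize methylated cytosine, and TDG cuts out the oxidized base so that it can be replaced. Around implantation the mammalian genome regains the methylation it lost after fertilization, the embryo proper more than the tissues of the placenta, while ZFP57 holds methylation at imprinted genes and MBD3 works in the NuRD chromatin complex.

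Each library held 48713218 to 63037371 counts, and levels are given as CPM, the reads of a gene scaled to a common library size, after TMM scaling, which evens out differences in library composition. The ED label was checked against markers of the disc. The summed CPM of POU5F1, NANOG, SOX2, FGF4 and LIN28B, genes of the pluripotent epiblast, was 26.0 to 60.9 in ED of IVP embryos, 35.1 to 284 in ED of IVV embryos and 2.53 to 6.47 in EEM. SOX2 was listed at 0 counts in every library. Strand was not kept and how reads in overlapping genes were counted was not tested, so this 0 is not read as a lack of SOX2 RNA. The sum over 8 trophoblast markers overlapped between the tissues, at 1225 to 7928 CPM in ED and 2381 to 10399 CPM in EEM, as did that over 8 hypoblast markers, and markers of the outer layers were thus not low in ED. Markers of the cow were also counted. The sum over 6 blood markers was 0.304 to 3.72 CPM, and that over 5 uterus markers was 9.87 to 37.6 CPM in ED and 5.51 to 20.7 CPM in EEM. Of the uterus markers, PAEP and SERPINA14 were at no more than 3 counts in every library, while MSX1, which embryos also express, was higher in ED than in EEM (log2 difference 2.37, adjusted p = 7.32e-06) and lower in ED of IVP than of IVV embryos (-1.94, adjusted p = 0.000229). In these bulk samples, fewer cells of a type and less RNA per cell cannot be told apart. ED and EEM of an embryo deviated together from their group means in 12 of the 13 embryos. The exception was IVPF13, whose ED deviated most like the EEM of IVPF14, and for the genes called the tissue difference is also given without it.

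Of the 10 genes, DNMT3A and DNMT3B were higher and MBD3 lower in ED than in EEM of the same embryos, and none of the 10 passed the test between IVP and IVV embryos in either tissue. The 3 of 10 called between the tissues compare with 21.0% of the 14898 genes tested, 12.8% being higher and 8.16% lower in ED. Between IVP and IVV, edgeR's quasi-likelihood test called 0 of 10 in ED, where it called 6.34% of 15733 genes, and 0 of 10 in EEM, where it called 3.81% of 14718 genes. At an unadjusted p under 0.05 the count was 1 in ED and 0 in EEM, and DESeq2 called 1 in ED and 0 in EEM. The gene behind the ED counts of 1 was ZFP57.

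**Figure D1:**
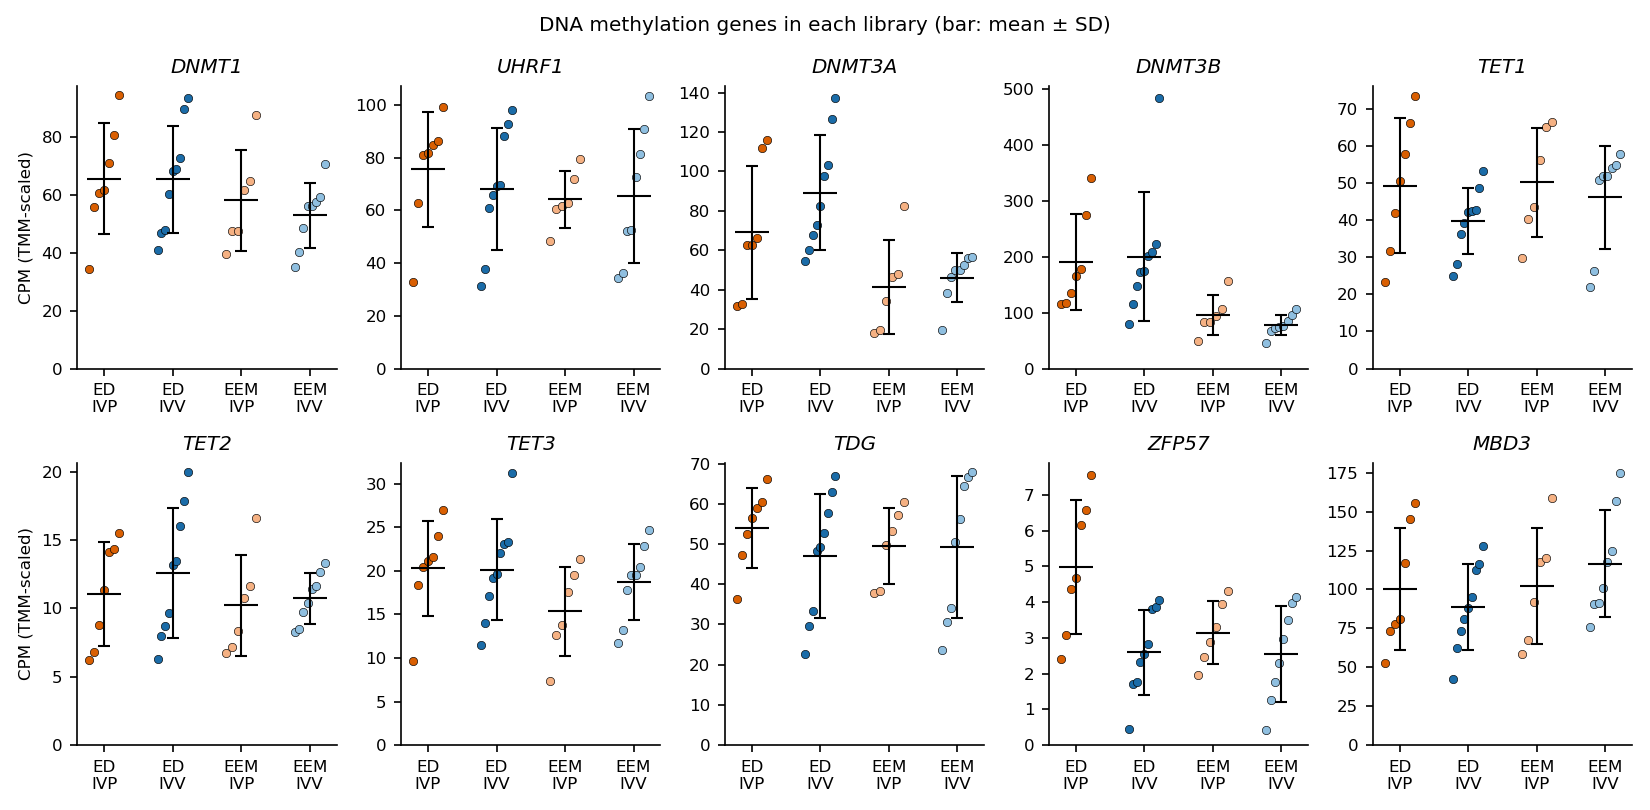
CPM (TMM-scaled) of the 10 genes in each library, by tissue and procedure; each point is a library and the bars give the mean and SD. DNMT3A and DNMT3B reach their highest values in ED (137 and 483 CPM, both in embryo VE5), and IVP and IVV libraries overlap for every gene in each tissue.

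**Figure D2:**
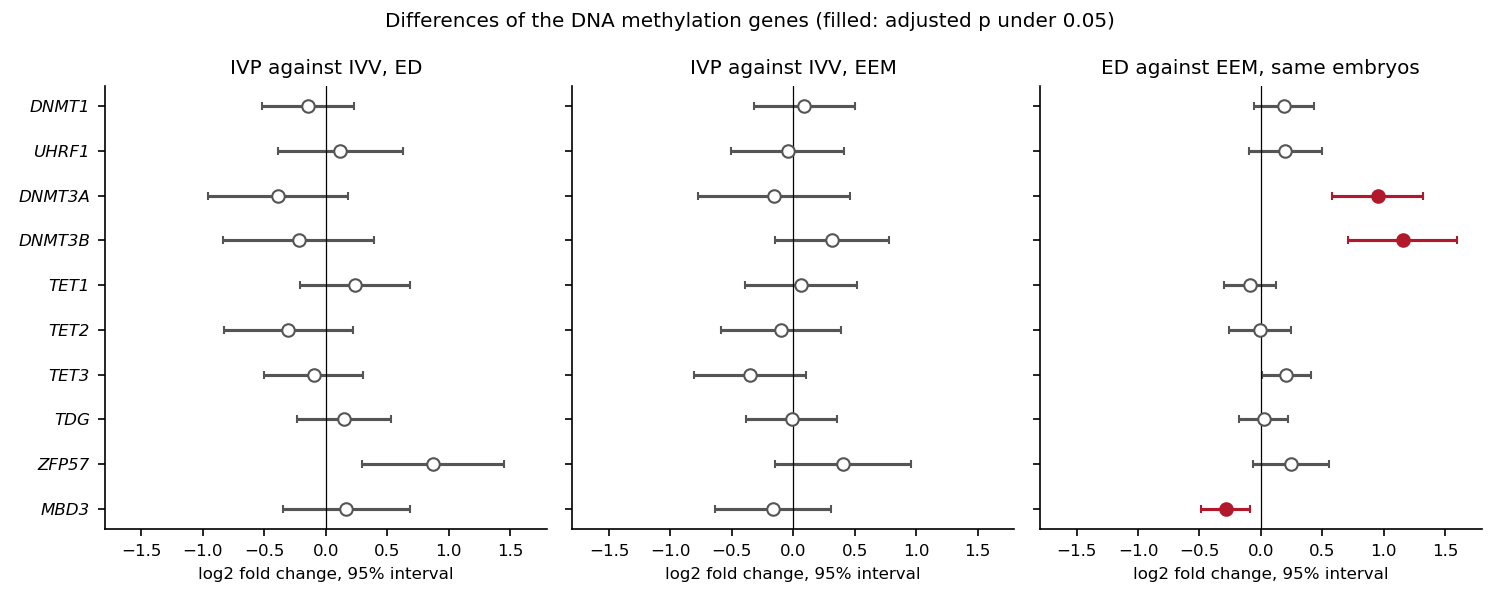
Fitted log2 fold change with its 95% interval for the 10 genes, IVP against IVV in ED (left) and in EEM (middle) and ED against EEM in 13 embryos (right); filled symbols passed an adjusted p of 0.05. DNMT3A (0.95), DNMT3B (1.15) and MBD3 (-0.29) passed between the tissues, and no gene passed between IVP and IVV.

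Neither gene of the maintenance pair passed in any comparison with all embryos. DNMT1, the enzyme that copies methylation, ran from 34.4 through a median of 61.5 to 94.4 CPM in ED of IVP embryos and from 40.9 through 68.1 to 93.2 CPM in ED of IVV embryos. In EEM it ran from 39.3 through 54.5 to 87.4 CPM in IVP and from 35.2 through 55.9 to 70.4 CPM in IVV embryos. The groups overlapped over most of their ranges in both tissues. The log2 fold change of IVP against IVV was -0.14 in ED (SE 0.18, 95% interval -0.52 to 0.23, adjusted p = 0.780) and 0.09 in EEM (SE 0.20, interval -0.32 to 0.50, adjusted p = 0.978). DNMT1 was higher in ED than in EEM in 10 of 13 embryos, with a log2 difference of 0.19 (SE 0.12, adjusted p = 0.264) that did not pass. In IVV embryos alone it passed with VE24 left out (0.40, adjusted p = 0.0469) but not with all 8 (0.28, adjusted p = 0.207).

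UHRF1, which brings DNMT1 to replicated DNA, ranged from 32.8 through 81.7 to 99.4 CPM in ED of IVP and from 31.3 through 69.2 to 98.0 CPM in ED of IVV embryos. In EEM the lowest, median and highest were 48.2, 62.3 and 79.4 CPM in IVP and 34.3, 62.8 and 104 CPM in IVV embryos. IVP and IVV embryos overlapped in both tissues. The spread was alike in ED and wider within IVV embryos in EEM. The log2 fold change of IVP against IVV was 0.12 (SE 0.25, adjusted p = 0.882) in ED and -0.05 (SE 0.22, adjusted p = 0.991) in EEM. Between the tissues the difference was 0.20 (SE 0.14, adjusted p = 0.333), with ratios of ED to EEM from 0.594 in VE24 to 2.86 in VE29. S phase genes, which follow the share of cells copying their DNA, summed over 15 genes to 2006 to 3653 CPM in ED and 2110 to 3349 CPM in EEM. Between the tissues 1 of the 15 passed, where 21.0% of all genes tested did. It was SLBP, lower in ED (log2 difference -0.29, adjusted p = 0.0475).

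Both de novo methyltransferases were higher in the disc. DNMT3A ran from 31.9 through 62.6 to 116 CPM in ED of IVP and from 54.4 through 82.7 to 137 CPM in ED of IVV embryos. Its EEM levels ran from 18.1 through 40.2 to 82.7 CPM in IVP and from 19.3 through 50.1 to 56.6 CPM in IVV embryos. ED exceeded EEM in 12 of 13 embryos, the exception being VE24 with a ratio of 0.973, and the ratio reached 5.34 in VE28. The fitted fold was 1.93 (log2 0.95, SE 0.18, interval 0.58 to 1.32, adjusted p = 0.00053). Without IVPF13 the log2 difference was 0.87 (adjusted p = 0.00182).

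DNMT3B, which acts with DNMT3A in the early embryo, ran from 115 through 166 to 340.4 CPM in ED of IVP and from 79.3 through 174 to 483 CPM in ED of IVV embryos. In EEM the lowest, median and highest were 49.97, 88.6 and 157 CPM in IVP and 45.6, 74.8 and 106 CPM in IVV embryos. ED again exceeded EEM in 12 of 13 embryos, here with IVP11 as the exception (ratio 0.751) and VE5 as the highest (ratio 7.18). The fitted fold was 2.22 (log2 1.15, SE 0.21, interval 0.71 to 1.59, adjusted p = 0.000426). It was 1.20 on the log2 scale without IVPF13 (adjusted p = 0.000601) and 1.02 without VE5 (adjusted p = 0.000528). Both genes passed under all 6 other ways of fitting the tissue difference and with each of the 13 embryos left out.

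**Figure D3:**
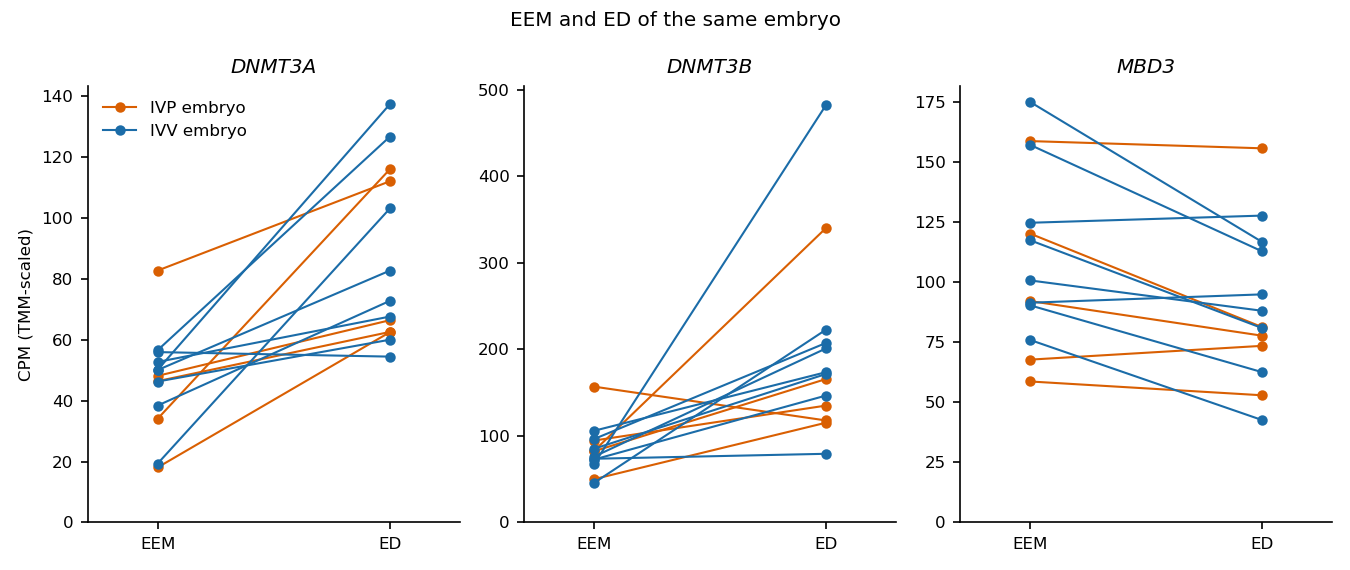
CPM (TMM-scaled) of DNMT3A, DNMT3B and MBD3 in EEM and ED, one line per embryo (5 IVP, 8 IVV). DNMT3A and DNMT3B lines rise from EEM to ED in 12 of 13 embryos each, and MBD3 lines fall in 10 of 13.

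Markers of other cell types moved with the tissue as well. Between ED and EEM, the epiblast markers POU5F1 and LIN28B were higher in ED. NANOG, with at most 10 counts in an EEM library, passed the filter on low counts only through ED, so its direction was fixed, and FGF4 and SOX2 did not pass. The same held for EOMES among the mesoderm markers, with at most 4 counts in an EEM library. MESP2 (log2 difference 3.17, adjusted p = 0.00189) and MIXL1 (1.66, adjusted p = 0.00225) were higher in ED. MESP1 was tested and not called, and APLNR and TBXT did not pass the filter. The sum over the 6 mesoderm markers was 6.99 to 154 CPM in ED and 1.22 to 8.03 CPM in EEM. Of the 8 trophoblast markers, 3 (ASCL2, TFAP2C and TFAP2A) were lower in ED, and of the 8 hypoblast markers 6 were tested, of which 3 (HNF4A, FOXA2 and GATA4) were higher. Over all genes tested, 8.16% were lower and 12.8% higher in ED. TTR, a hypoblast marker tested when IVV embryos were taken alone, was lower in their ED (-3.04, adjusted p = 0.00148), at 0.0615 to 0.715 CPM in ED and 0 to 4.94 CPM in EEM. Within the ED libraries, VE5 held the highest levels of DNMT3A and DNMT3B, the highest epiblast sum (284 CPM) and the highest sum over 6 mesoderm markers (154 CPM). IVP14, the highest IVP library for both genes (116 and 340.4 CPM), also had the highest epiblast sum of the IVP libraries, 60.9 CPM. VE4, with the lowest epiblast sum of the IVV libraries (35.1 CPM), was lowest for DNMT3B at 79.3 CPM and at the median for DNMT3A with 82.7 CPM. The order was looser elsewhere, since VE28 and VE29 had epiblast sums of 166 and 171 CPM with DNMT3B at 174 and 223 CPM, below the 340.4 CPM of IVP14. IVPF15, with an epiblast sum of 48.0 CPM, was the lowest ED library for DNMT3A at 31.9 CPM. IVP11, with a sum of 49.6 CPM, held DNMT3B at 118 CPM. The part of the makeup of a disc in these levels was not tested.

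**Figure D4:**
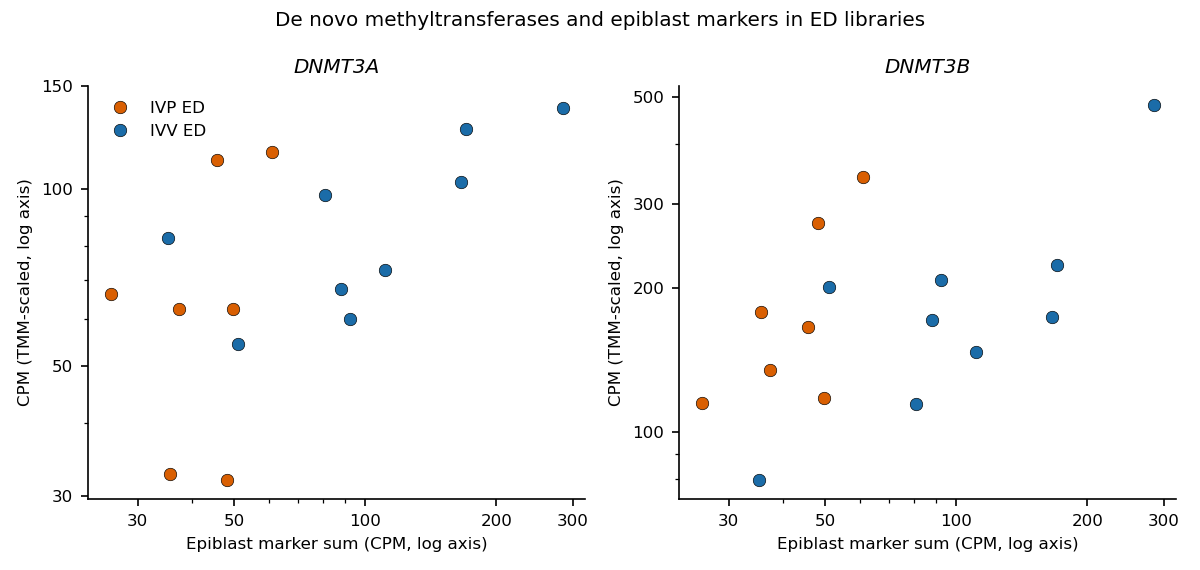
CPM of DNMT3A (left) and DNMT3B (right) against the summed CPM of 5 epiblast markers in the 16 ED libraries, both axes on log scales. VE5 is at the top right of both panels (284 CPM of markers, with DNMT3A at 137 and DNMT3B at 483 CPM), while IVP libraries lie at marker sums up to 60.9 CPM with DNMT3B up to 340.4 CPM.

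Between IVP and IVV embryos neither de novo enzyme passed. In ED, DNMT3A was above the IVV median in 2 of 7 IVP embryos, and its log2 fold change was -0.39 (SE 0.27, interval -0.96 to 0.18, adjusted p = 0.518). It was -0.77 with the IVPF embryos alone (adjusted p = 0.182), -0.12 with the other IVP embryos alone (0.906), -0.65 with XIST as a covariate (0.66) and between -0.61 (without IVP14) and -0.23 (without VE5) with single embryos left out. DNMT3B was above the IVV median in 3 of 7 IVP embryos, with a log2 fold change of -0.22 (SE 0.30, interval -0.83 to 0.40, adjusted p = 0.796), which became 0.09 without VE5 and -0.71 with XIST as a covariate (adjusted p = 0.60). In EEM, DNMT3B was above the IVV median in 5 of 6 IVP embryos, with a log2 fold change of 0.31 (SE 0.22, interval -0.15 to 0.78, adjusted p = 0.669). With single embryos left out this ran from 0.15 (without IVP11) to 0.45 (without IVP10, adjusted p = 0.334). DNMT3A stood at -0.16 in EEM (SE 0.30, adjusted p = 0.971), or -0.54 with 2 surrogate variables (adjusted p = 0.351). The ED interval of DNMT3A reaches differences of the size measured between the tissues, so with these embryos a shift of that size could be missed. DNMT3L, a partner of these enzymes without catalytic activity, had at most 21 counts in a library and was not tested.

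The 3 TET enzymes, which start the removal of methylation, did not pass in any comparison. TET1, the form tied to pluripotent cells, ran from 23.3 through 50.4 to 73.6 CPM in ED of IVP and from 24.9 through 42.3 to 53.2 CPM in ED of IVV embryos. Its EEM levels ran from 29.7 through 49.9 to 66.4 CPM in IVP and from 22.0 through 51.9 to 57.7 CPM in IVV embryos. In ED, 3 of 7 IVP embryos were above every IVV embryo and the lowest library was also IVP (IVP11). The log2 fold change of IVP against IVV was 0.24 in ED (SE 0.22, adjusted p = 0.650) and 0.06 in EEM (SE 0.22, adjusted p = 0.988). ED and EEM differed by -0.09 (SE 0.10, interval -0.30 to 0.12, adjusted p = 0.562).

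TET2 was read at 6.22 through 11.4 to 15.5 CPM in ED of IVP and 6.33 through 13.2 to 20.003 CPM in ED of IVV embryos, and in EEM at 6.76 through 9.58 to 16.6 CPM in IVP and 8.27 through 10.9 to 13.4 CPM in IVV embryos. Its tissue difference was -0.01 (SE 0.12, interval -0.26 to 0.24, adjusted p = 0.972), and its log2 fold change of IVP against IVV was -0.30 (SE 0.25, adjusted p = 0.611) in ED and -0.10 (SE 0.24, adjusted p = 0.979) in EEM. TET3, the form that the oocyte supplies, ran from 9.62 through 21.1 to 27.0 CPM in ED of IVP and from 11.5 through 19.6 to 31.3 CPM in ED of IVV embryos. In EEM it ran from 7.35 through 15.6 to 21.3 CPM in IVP and from 11.8 through 19.5 to 24.7 CPM in IVV embryos, with 1 of 6 IVP embryos above the IVV median. The log2 fold change of IVP against IVV was -0.10 (SE 0.19, adjusted p = 0.878) in ED and -0.35 (SE 0.22, interval -0.80 to 0.10, adjusted p = 0.576) in EEM. Between the tissues TET3 had an unadjusted p of 0.0435 and an adjusted p of 0.133 in the edgeR fit, with a log2 difference of 0.21 (SE 0.10).

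TDG, the glycosylase that cuts out oxidized cytosine, passed in no comparison. It ran from 36.3 through 56.5 to 66.1 CPM in ED of IVP and from 22.7 through 49.4 to 67.0 CPM in ED of IVV embryos, and in EEM from 37.9 through 51.5 to 60.6 CPM in IVP and from 23.6 through 53.4 to 68.0 CPM in IVV embryos. In each tissue, 3 IVV embryos fell below the lowest IVP embryo, and they were the same 3, VE19, VE28 and VE29. Their ED levels were 29.6, 22.7 and 33.3 CPM and their EEM levels 23.6, 30.6 and 34.0 CPM. TDG differed between ED and EEM by 0.02 on the log2 scale (SE 0.09, interval -0.17 to 0.22, adjusted p = 0.883), and between IVP and IVV by 0.15 in ED (SE 0.19, adjusted p = 0.778) and -0.01 in EEM (SE 0.18, adjusted p = 0.996).

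ZFP57, a zinc finger protein that binds methylated imprinting control regions and keeps them methylated, came closest to a difference between IVP and IVV embryos. In ED it ran from 2.40 through 4.69 to 7.55 CPM in IVP embryos (mean 4.98 ± 1.88, SD, n = 7) and from 0.444 through 2.55 to 4.05 CPM in IVV embryos (mean 2.59 ± 1.19, SD, n = 9). Of the 7 IVP embryos, 5 were above every IVV embryo, and 4 of the 9 IVV embryos were below every IVP embryo, so the groups overlapped in the remaining libraries. The log2 fold change was 0.88 (SE 0.28, interval 0.30 to 1.45, unadjusted p = 0.00458), and with an adjusted p of 0.063 in edgeR it missed the threshold. It passed with DESeq2 (adjusted p = 0.0145), with the size factors of DESeq2 in edgeR (0.0491), with no filter on low counts (0.0440) and with the IVP embryos whose titles start IVPF alone (0.0242). It did not pass with the other IVP embryos alone (0.252), with no surrogate variable (0.124) or 2 of them (0.116), with the title letter as a term (0.117), with 10 counts in every library (0.163) or with counts halved (0.0571). It also passed when IVP11 (adjusted p = 0.0210), IVP14 (0.0200) or VE24 (0.0467) was left out.

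In EEM, ZFP57 ran from 1.96 through 3.10 to 4.30 CPM in IVP and from 0.427 through 2.64 to 4.13 CPM in IVV embryos, with 1 of 6 IVP embryos above every IVV embryo. The log2 fold change of IVP against IVV there was 0.41 (SE 0.27, interval -0.15 to 0.96, adjusted p = 0.624). VE19 was the lowest library in both tissues, with 22 counts in ED and 20 in EEM, and VE28 and VE29 were the next lowest IVV embryos in both (1.76 and 1.72 CPM in ED, 1.27 and 1.76 CPM in EEM). The same 3 embryos were the lowest IVV embryos for TDG. Without VE19 the log2 fold change of IVP against IVV was 0.74 in ED (adjusted p = 0.0928) and 0.12 in EEM (adjusted p = 0.998). Between the tissues ZFP57 differed by 0.24 (SE 0.15, adjusted p = 0.254).

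**Figure D5:**
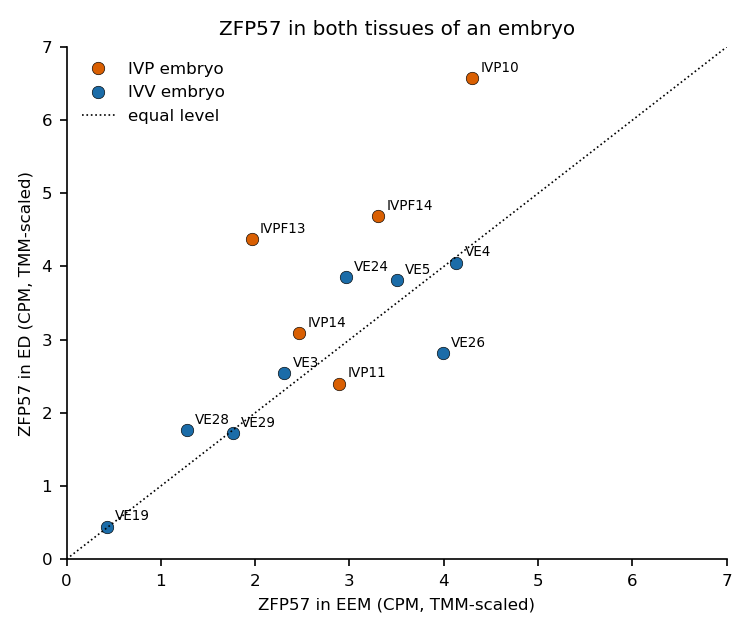
ZFP57 CPM (TMM-scaled) in ED against EEM of the same embryo (5 IVP, 8 IVV), with a dotted line at equal levels. VE19 is lowest in both tissues (0.444 and 0.427 CPM), VE28 and VE29 follow it, and 4 of the 5 IVP embryos lie above the line.

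XIST, the RNA of the inactive X chromosome, divided the embryos almost as procedure did. It had at most 30 counts in every IVP library, while 7 of 9 IVV embryos had 45.1 to 150 CPM in ED and 2 of 9 (VE3 and VE5) had 1 count each. EEM gave the same division of the IVV embryos, with 6 of 8 at 97.2 to 424 CPM. ZFP57 in ED was 2.55 CPM in VE3 and 3.81 CPM in VE5, and of the 7 embryos with XIST, VE26 (2.82 CPM), VE24 (3.85 CPM) and VE4 (4.05 CPM) also lay within the IVP range. With XIST as a covariate the log2 fold change of ZFP57 was 0.75 in ED (SE 0.48, adjusted p = 0.66) and 0.94 in EEM (SE 0.49, adjusted p = 0.807). The part of XIST level, or of the embryo sex it marks, in the ZFP57 values was not tested further.

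MBD3, a NuRD subunit whose methyl-binding domain binds methylated DNA poorly in mammals, was lower in ED than in EEM by a small margin. It ran from 52.9 through 81.2 to 156 CPM in ED of IVP and from 42.6 through 88.1 to 128 CPM in ED of IVV embryos, and in EEM from 58.7 through 105 to 159 CPM in IVP and from 75.9 through 109 to 175 CPM in IVV embryos. ED was below EEM in 10 of 13 embryos, with ratios from 0.561 in VE28 to 1.08 in IVPF14. The log2 difference was -0.29 (SE 0.09, interval -0.49 to -0.09, adjusted p = 0.0365). The call was lost without embryo as a block (adjusted p = 0.495), with at least 10 counts asked of every library (0.0749) and with counts halved (0.0517). It was also lost when VE19 (adjusted p = 0.0635), VE26 (0.0720), VE28 (0.0701), VE29 (0.0681), VE4 (0.0527) or VE5 (0.0823) was left out, and it held without IVPF13 (0.0406). Between IVP and IVV the log2 fold change was 0.17 (SE 0.25, adjusted p = 0.820) in ED and -0.16 (SE 0.23, adjusted p = 0.931) in EEM.

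The size of the tissue difference in IVP embryos against IVV embryos was tested with an interaction term. It called 0 of the 10 genes, where it called 1.02% of 16784 genes; the count at an unadjusted p under 0.05 was also 0, and DESeq2 called 0. The largest interaction by size was that of DNMT3B, at -0.46 (SE 0.43, interval -1.36 to 0.43, adjusted p = 0.836). It moved with single embryos, being -0.11 without IVP11, -0.25 without VE5, -0.28 without VE29 and -0.76 without IVP14. Without IVP11, VE5 or VE29 the interaction of ZFP57 was the larger, at 0.57, 0.36 and 0.38. In IVV embryos the tissue difference of DNMT3B was 1.31 (SE 0.27, adjusted p = 0.00114), that of DNMT3A 0.92 (SE 0.24, adjusted p = 0.0076) and that of MBD3 -0.38 (SE 0.12, adjusted p = 0.0287), so 3 of 10 passed where 22.1% of genes did, 15.6% being higher and 6.55% lower in ED. The MBD3 call in IVV embryos was lost without the block (adjusted p = 0.474), with no filter on low counts (0.0574), with 10 counts in every library (0.11) and without VE19 (0.0701), VE26 (0.0683), VE28 (0.104), VE29 (0.0771) or VE5 (0.0832). In IVP embryos edgeR called 0 of 10, where it called 4.83% of genes; 2 had an unadjusted p under 0.05, DNMT3A (0.94, SE 0.30, adjusted p = 0.0795, and 0.73 with adjusted p = 0.299 without IVPF13) and DNMT3B (0.84, SE 0.34, adjusted p = 0.186), and DESeq2 called 1, DNMT3A. The interaction of DNMT3A was 0.02 (SE 0.38, interval -0.76 to 0.81).

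Partners of the 10 genes were taken from 8 lists with 72 genes in all, covering maintenance, de novo methylation, base removal and repair, TET cofactors, imprint protection, methyl-CpG readers, NuRD and the supply of methyl groups. Of the 68 tested between ED and EEM, 12 were higher and 5 lower in ED, beside the 12.8% and 8.16% of all genes tested. Among the 12, PRDM14 and CXXC4 passed the filter on low counts only through their ED libraries, so their direction was fixed by the filter. The medians of the lists other than TET cofactors and regulators ran from -0.16 (de novo partners) to 0.07 (methyl donor supply) on the log2 scale. That of the TET cofactors was 0.44 over 7 genes, the value of CXXC5, and rested on PRDM14 and CXXC4, since the middle of the values without these was 0.05, that of IDH1. The median of the 10 genes was 0.19, and that of all 14898 genes tested was -0.08. Among the maintenance partners, CDCA7L (log2 difference 1.26, adjusted p = 1.11e-05) and HELLS (0.42, adjusted p = 0.0404) were higher in ED. HELLS is a chromatin remodeler that lets methylation reach packed DNA, and in IVV embryos it stood at 54.9 ± 11.1 CPM in EEM (SD, n = 8) and 82.6 ± 29.6 CPM in ED (n = 9). In IVP embryos alone 0 of the 8 maintenance partners were called between the tissues, where 4.83% of genes were. The interaction also called 0 of the 8, where it called 1.02% of genes.

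Of the 7 TET cofactors and regulators 4 were called higher in ED and 0 lower, a count that includes both genes fixed by the filter and from which nothing is read. PRDM14 is a germ cell and pluripotency factor that works with TET enzymes, and it had at most 6 counts in an EEM library and a mean of 4.95 ± 3.41 CPM in ED of IVV embryos (SD, n = 9). CXXC4, which binds unmethylated CpG and acts on TET2, followed with at most 10 counts in an EEM library and 1.10 ± 1.21 CPM in the same ED libraries. IDH2, which makes the 2-oxoglutarate that TET enzymes use, was higher by 1.22 on the log2 scale (adjusted p = 0.000113). For PRDM14 and CXXC4 the fitted fold depends on how near-zero counts are treated and is not given. In the imprint protection list ZNF445, a zinc finger protein with a role like that of ZFP57, was higher in ED by 0.93 (adjusted p = 0.00251).

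Of the genes of base removal and repair, 12 were tested, of which 3 were lower and 1 higher in ED, beside 8.16% and 12.8% of all genes tested. The 3 stress-induced GADD45 genes, which have been linked to repair-based demethylation, were lower in ED. The differences were -1.002 for GADD45G (adjusted p = 0.00311), -0.56 for GADD45B (adjusted p = 0.00493) and -0.53 for GADD45A (adjusted p = 0.0128). The other gene called, NEIL2, a glycosylase, was 0.42 higher (adjusted p = 0.0207) and is named here after its values were seen. In NuRD, the complex of MBD3, 2 of 12 were higher and 1 lower. MTA3 (0.50, adjusted p = 0.0194) and the deacetylase HDAC2 (0.59, adjusted p = 0.0289) were higher and the histone chaperone RBBP7 (-0.29, adjusted p = 0.0464) was lower in ED. In the supply of methyl groups, 2 of 12 tested were higher and 1 lower. MTR (-0.34, adjusted p = 0.0119), the methionine synthase, was lower, while SHMT1 (0.51, adjusted p = 0.0217) and AHCY (0.33, adjusted p = 0.0365) were higher.

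Between IVP and IVV embryos few of these partners passed. In ED 1 of 68 was called, PRDM14, which was lower in IVP embryos, as 4.95% of all genes tested were. It ranged from 0.679 to 2.12 CPM in IVP and from 1.00 to 12.9 CPM in IVV embryos. The fitted log2 difference was -1.95 (SE 0.40, adjusted p = 0.00411). Markers of disc cells were lower in the same libraries. Of the 3 epiblast markers tested 1 passed, POU5F1, at -1.72 (adjusted p = 0.00479), with 29.2 ± 9.01 CPM (SD, n = 7) against 94.99 ± 63.2 CPM (n = 9). All 6 mesoderm markers were called lower in ED of IVP embryos, and their sum was 6.99 to 16.1 CPM against 23.6 to 154 CPM. APLNR and MESP2 were near 0 in IVP embryos, with means of 0.257 and 0.205 CPM, near the level of the filter on low counts. They may have passed that filter only through IVV embryos, so nothing is read from their direction. The part of disc cells in the PRDM14 level was not tested. In EEM 2 of 65 were called, both lower in IVP embryos, as 1.52% of all genes tested were. GADD45B was at 7.31 to 19.5 CPM in IVP and 11.2 to 71.7 CPM in IVV embryos (log2 fold change -1.22, SE 0.29, adjusted p = 0.0125). GADD45A was at 16.5 to 75.1 CPM in IVP and 46.4 to 245 CPM in IVV embryos (log2 fold change -1.28, SE 0.33, adjusted p = 0.0227). IVP and IVV libraries overlapped for all 3 of these partners. Among the cell type markers in EEM, LIN28B was higher in IVP embryos (log2 fold change 1.10, adjusted p = 0.0159), at 1.91 to 4.73 CPM against 0.641 to 2.48 CPM. The hypoblast marker TTR was called lower, with at most 1 count in an IVP library and 0 to 4.94 CPM in IVV embryos, and passed the filter only through the latter. The part of these cells in the GADD45 levels was not tested. The list medians ran from -0.33 to 0.06 in ED and from -0.10 to 0.25 in EEM, beside -0.0079 and 0.0038 for all genes tested.

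The genes whose levels followed each of the 10 most closely were listed from 12808 genes over the 30 libraries, after the mean of each group was taken off. The libraries of an embryo are not independent, so these coefficients are descriptions. TDG had the closest partners, PPP4R3B (r = 0.955) and BCLAF1 (r = 0.953), followed by ZFP57 with CASP2 (r = 0.920) and MBD3 with FBRSL1 (r = 0.907). TET1 went with ADD3 (r = 0.904), DNMT1 with ZNF281 (r = 0.898), TET3 with VANGL1 (r = 0.870) and DNMT3B with EDA (r = 0.813). TET2 went with NFAT5 (r = 0.789), UHRF1 with STAT3 (r = 0.788) and DNMT3A with KLHL26 (r = 0.752), the loosest of the 10. Among themselves, TDG and ZFP57 were the closest pair (r = 0.792), and TET1 and MBD3 were the most opposed (r = -0.721). TDG and ZFP57 shared their low values in VE19, VE28 and VE29. In EEM, VE19 (0.69) and VE28 (0.36) had the 2 highest values of the surrogate variable, a summary of variation over all genes, so these 2 libraries stood apart in more than these genes, while VE29 (0.20) was no farther out than IVP11 (0.20). In ED, where its sign is turned, VE19 was at -0.49, VE28 at -0.27 and VE29 at -0.09, with IVP11 at -0.49. At the other end were IVPF10 (0.38) and IVPF15 (0.35), with ZFP57 at 7.55 and 6.17 CPM. The surrogate variable correlated with ZFP57 at 0.683 in ED and -0.853 in EEM, and with TDG at 0.683 and -0.941.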

How the data were processed

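PolyA-selected, unstranded RNA of ED and EEM was sequenced as read pairs. According to the labels and the study's methods, the authors mapped reads with STAR 2.7.0b to the ARS-UCD1.3 cattle assembly and deposited raw counts per Entrez gene made with featureCounts (Subread 2.0.3), with 35092 genes in 30 libraries. Entries of 2 (19289) outnumbered entries of 1 (15257), so a count may be 1 mate of a pair, and the fits were repeated with halved counts. Since strand was not kept, a gene and an overlapping antisense gene cannot be told apart. Symbols came from a RefSeq table matched by Entrez ID, which named 31630 genes holding 99.5% of counts. That table is of another assembly (ARS-UCD2.0) and gives no transcript length, so no coordinates are given and no levels are compared between genes.

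Counts were tested with edgeR 4.0.16 in R 4.3.3 (quasi-likelihood test, TMM, filterByExpr with a minimum count of 10, Benjamini-Hochberg adjustment over all genes, threshold 0.05). IVP and IVV were compared within each tissue with 1 surrogate variable from sva 3.50.0. ED and EEM were compared in 26 libraries of 13 embryos with embryo as a block, since titles name the embryo. Deviations of the paired tissues from their group means correlated at a median of 0.565 (lowest -0.345, in IVPF13) against -0.0237 between other embryos. An interaction term compared the tissue difference of IVP and IVV embryos. The scripts were tested on simulated data. DESeq2 1.42.0, other scalings, filters, covariates and each embryo left out were tried as alternatives.

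The 10 genes and all lists were chosen with earlier results of these data known. All 10 genes were described in every comparison, and of each partner list at most 3 genes per comparison with the smallest p among those past the threshold were named, with NEIL2 added after its values were seen. Outside this rule, CXXC5 and IDH1 were named as the genes at a median, and DNMT3L as a gene not tested. No copies were found among the 100 pairs of libraries within a group, and pairs across groups were not compared.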

Additional observations from a re-analysis of the deposited data

Results flagged for a closer look

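DNMT3B in ED of embryo VE5 stood far from the other IVV embryos, at 482.668 CPM against 222.938 CPM in the next library, a gap of 0.644 of the range of the 9 libraries. It was the only one of 40 groups of the 10 genes with a library past the cut of the flagging rule. That cut is meant to be passed by chance in about 1 in 20 groups, and no rate was computed for a gap of 0.644. VE5 also had the highest epiblast marker sum, 284 CPM, and the highest mesoderm marker sum, 154 CPM, of the ED libraries. Their part in its DNMT3B level was not tested. Its EEM library held 67.2 CPM of DNMT3B, within the range of the other IVV embryos.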

How the results depend on the processing

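Of 1280 values of the 10 genes under alternatives, 1186 kept their direction and their side of the threshold, 17 lost a call, 11 gained one and 66 changed sign. The sign changes were in values that passed the test neither before nor after, and their cause was not tested.

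The count of genes called moved with the settings. Between IVP and IVV in ED (998) it was 1512 with DESeq2, 1846 with no filter on low counts, 431 with 10 counts in every library, 578 with XIST as a covariate, 240 with titles starting IVP only and 658 with titles starting IVPF only. In EEM (561) it was 1211 with no filter, 275 with 10 counts in every library, 130 with XIST and 96 with IVPF only. Between the tissues (3124) it was 1553 without the replicate block and 1828 with 10 counts in every library. In IVV embryos (3711) these gave 2268 and 1420, and in IVP embryos (810) 10 counts in every library gave 194. The interaction (172) gave 435 with DESeq2, 356 with no filter and 11 with 10 counts in every library. With single embryos left out, the counts were 639 to 1160 in ED, 473 to 851 for the tissues of IVP embryos and 101 to 211 for the interaction.

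Of the 10 genes, the count called between IVP and IVV in ED was 1 in place of 0 with DESeq2, with its size factors, with no filter and with IVPF only, and 0 to 1 with embryos left out, each time ZFP57. Between the tissues of IVP embryos it was 1 with DESeq2 and with no filter and 0 to 1 with embryos left out, each time DNMT3A. The other gained call was DNMT1 between the tissues of IVV embryos without VE24 (0.40, adjusted p = 0.0469). Without the embryo block, the paired tissue difference of MBD3 lost its call (-0.27, adjusted p = 0.495; in IVV embryos -0.36, adjusted p = 0.474), and DNMT3A and DNMT3B kept theirs.

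Signs changed as follows on the log2 scale. In ED, IVP against IVV, IVPF only gave 0.11 for DNMT1, -0.13 for UHRF1 and 0.0075 for TET3, IVP only gave -0.021 for MBD3, and XIST gave -0.098 for UHRF1 and 0.038 for TET2. In EEM, XIST gave 0.14 for UHRF1, 0.032 for TET2 and 0.15 for TDG, the title letter as a term gave 0.019 for UHRF1, 2 surrogate variables gave -0.018 for TET1 and none gave 0.0068 for TDG. Between the tissues TET2 became 0.026 without the block, 0.0042 with DESeq2, 0.0037 with its size factors, 0.034 with 10 counts in every library and 0.012 with counts halved. The DNMT3A interaction became -0.11 without the block and -0.0015 with 10 counts in every library, TDG in IVV embryos became 0.012 with the latter, and DNMT1 in IVP embryos became 0.025 with DESeq2, 0.025 with its size factors, 0.017 with no filter and 0.036 with 10 counts in every library.

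With embryos left out, IVP against IVV in ED ran from -0.18 to 0.10 for DNMT1, -0.36 to 0.089 for DNMT3B, -0.19 to 0.13 for TET3 and -0.034 to 0.28 for MBD3. In EEM it ran from -0.00077 to 0.18 for DNMT1, -0.48 to 0.0020 for DNMT3A, -0.16 to 0.072 for UHRF1, -0.067 to 0.20 for TET1 and -0.13 to 0.045 for TDG. Between the tissues it ran from -0.034 to 0.064 for TDG and -0.051 to 0.053 for TET2, in IVV embryos from -0.12 to 0.20 for UHRF1, -0.0048 to 0.13 for TET2 and -0.13 to 0.00059 for TDG, and in IVP embryos from -0.13 to 0.14 for DNMT1, -0.12 to 0.13 for TET1 and -0.022 to 0.19 for TDG. The interaction of DNMT3A ran from -0.19 to 0.26.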
